A study of Drosophila melanogaster with 2 samples.

Results

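Deep intronic peaks of Glass are the peaks whose summit, the highest point of the peak, lay within the span of a protein-coding gene, in no exon of such a gene, and more than 5 kb from the nearest transcription start site (TSS) of one. Of the 4809 peaks of the reproducible list, 791 met this rule (16.4%, 95% Wilson interval 15.4 to 17.5), and they lay in 359 genes. The rule used position alone, neither the height of a peak nor its sequence. The data are ChIP-seq of 1 group of fruit flies (Drosophila melanogaster) in 2 biological replicates. The flies came from a transgenic line with GFP fused to the C terminus of Glass, the protein of gl. They were pupae, labelled 24 hour, of both sexes pooled, and the chromatin of whole organisms was sonicated to 200 to 800 bp. The labels state neither the promoter of the transgene nor whether the animals kept their own gl, and they name no tissue, so the cells that gave a signal are not known. A control alignment was shared by both replicates. One free-text label calls the samples an input control, but their antibody and assay fields give ChIP of gl, and they were taken as ChIP. Read depth is unknown. The labels call the replicates biological and do not say that they came from separate collections of animals, so the spread between them may be technical.

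Glass is a zinc finger transcription factor that is needed for the differentiation of photoreceptors and other cells of the fly eye. In animals, binding sites far inside introns are often enhancers, which act on a promoter at a distance, and long introns of developmental genes in flies hold many of them. A ChIP peak shows where DNA was recovered with the tagged protein, directly or through other chromatin proteins, and does not show that a site acts on the gene around it.

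The strongest members whose sequence can be given are shown here to let their base composition be seen; the strongest of all, in dnr1, is not among them and was richer in G and C (51.5%). Each is given as the 101 bp around the summit, on the plus strand, from the NCBI sequence of the dm6 assembly. Capitals mark AAAGAA or its complement TTCTTT, the 6-mer with the lowest p-value at these summits. It lay in 22.6% of the 791 summit windows and in 11.6% of control windows of the same length, 500 bp away. The peaks lay in introns of osa, a subunit of the Brahma chromatin remodelling complex, pnt, an ETS transcription factor downstream of the EGF receptor, and spen, a nuclear RNA-binding protein. The others lay in introns of InR, the insulin receptor, lilli, a nuclear protein of the AF4 family, and dpp, a ligand of the BMP family.
osa, chr3R:17704380-17704480: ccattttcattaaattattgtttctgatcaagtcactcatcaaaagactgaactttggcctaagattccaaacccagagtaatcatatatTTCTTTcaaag
pnt, chr3R:23334372-23334472: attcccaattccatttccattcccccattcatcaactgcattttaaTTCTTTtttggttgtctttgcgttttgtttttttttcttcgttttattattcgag
spen, chr2L:166603-166703: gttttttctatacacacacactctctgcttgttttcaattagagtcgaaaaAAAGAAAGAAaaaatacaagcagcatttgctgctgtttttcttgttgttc
InR, chr3R:21605368-21605468: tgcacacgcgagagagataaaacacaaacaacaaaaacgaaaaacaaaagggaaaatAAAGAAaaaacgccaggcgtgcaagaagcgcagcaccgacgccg
lilli, chr2L:2924490-2924590: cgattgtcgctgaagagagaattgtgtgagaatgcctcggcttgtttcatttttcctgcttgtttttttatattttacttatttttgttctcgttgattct
dpp, chr2L:2433594-2433694: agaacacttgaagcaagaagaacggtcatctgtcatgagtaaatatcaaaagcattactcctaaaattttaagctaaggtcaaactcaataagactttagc
The 6-mer was in 4 of these 6 windows. G and C made up 45.5% of the window of InR and between 31.7% and 34.7% of the other windows.

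A different sequence, the 8-mer CAAAGTCC, was known from earlier results of these data and was found at 8 members. It is given in capitals, within 30 bases, at the 6 of them whose sequence can be given, because these sites were spread over unrelated genes and signal values. They lay in FER, a tyrosine kinase, Pde9, a phosphodiesterase, rols, an adaptor of myoblast fusion, ex, a regulator of the Hippo pathway, fz, a receptor of Wnt and planar polarity signalling, and in both sky and CG43739. Sequences from rols, ex and the last site are from the minus strand and the others from the plus strand.
FER, chr3R:9389173-9389202: tattacaaagtCAAAGTCCaatgaagaaaa
Pde9, chrX:12890437-12890466: tcgctggcgggCAAAGTCCaccaagtgatg
rols, chr3L:12014475-12014504: ttggctggctcCAAAGTCCaaagctcgtcc
ex, chr2L:441019-441048: ttaaaagcccaCAAAGTCCaataagtttat
sky and CG43739, chr2L:20875601-20875630: aaagtcaaagtCAAAGTCCactccactcca
fz, chr3L:14281148-14281177: acgcaggctctCAAAGTCCacagatggaaa
The signal values of these 6 peaks ran from 129.4 at fz to 451.0 at FER. The other members with the 8-mer, in dnr1 and EcR, were the strongest of the 8, with 3648 and 503.9. The 8-mer was in 8 of 791 summit windows (1.01%) and in 2 of the control windows (0.253%). It was at 6 deep intronic summits against 4 control windows among the strongest entries of replicate 1, and at 11 against 0 in replicate 2. In introns 1 to 5 kb from a TSS it was at 21 of 930 summits (2.26%) and 0 control windows. Within 1 kb of a TSS it was at 45 of 2238 (2.01%) and 4 control windows. Outside genes and more than 1 kb from a TSS it was at 16 of 772 (2.07%) and 3 control windows. In exons more than 1 kb from a TSS it was at 4 of 78 (5.13%) and 1 control window. The share at deep intronic summits was thus the lowest of these classes. No test was made of these counts, since the 8-mer was chosen on these peaks.

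The height of a peak is the signal value deposited by the authors, which ranks peaks within a list. It had a median of 199.1 over the deep intronic peaks, with quartiles of 154.5 and 301.1 and a range from 127.0 to 3648. In the other classes the median was 206.7 in introns 1 to 5 kb from a TSS (930 peaks) and 202.1 within 1 kb of a TSS (2238 peaks). It was 195.6 outside genes and more than 1 kb from a TSS (772 peaks). The 78 exonic peaks more than 1 kb from a TSS had a median of 179.6. The median of the members was thus close to those of the other classes except the exonic one, which was lower. Of the members, 394 were among the 2404 strongest of the list. At the very top they were a smaller share, 8 of the 100 strongest peaks (8%), against 16.4% of the whole list. The rule has a threshold at 5 kb. Just inside it were peaks of shep at 5002 bp (signal value 292.5), CG46339 at 5003 bp (318.3) and cv-c at 5010 bp (471.6). Just outside were intronic peaks of Pdk at 5000 bp (353.9), tna at 4992 bp (831.8) and cno at 4985 bp (190.1).

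Most members were found in both replicates, but many were strong in one of them. An entry with its summit within 200 bp was present in both replicate lists, of 30000 entries each, for 762 members (96.3%, Wilson interval 94.8 to 97.4). It was present in replicate 1 alone for 21 and in replicate 2 alone for 8. Within the 4809 strongest entries of each replicate the share was lower: 486 members (61.4%) were among them in both, 191 (24.1%) in replicate 1 alone, 105 (13.3%) in replicate 2 alone and 9 in neither. In introns 1 to 5 kb from a TSS 62.6% of the peaks were among the strongest of both, and within 1 kb of a TSS 63.5%. Of the 198 strongest members 99.0% were among them in both, and of the following 198, 197 and 198 it was 85.9%, 51.3% and 9.60%. Because the reproducible list was made from both replicates, these shares describe it and do not test it. Across the 762 members the signal values of the replicates had a Spearman coefficient of 0.467, and a Pearson r of 0.518 after taking log10, over peaks that share 2 libraries and were chosen by pooled signal.

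**Figure D1:**
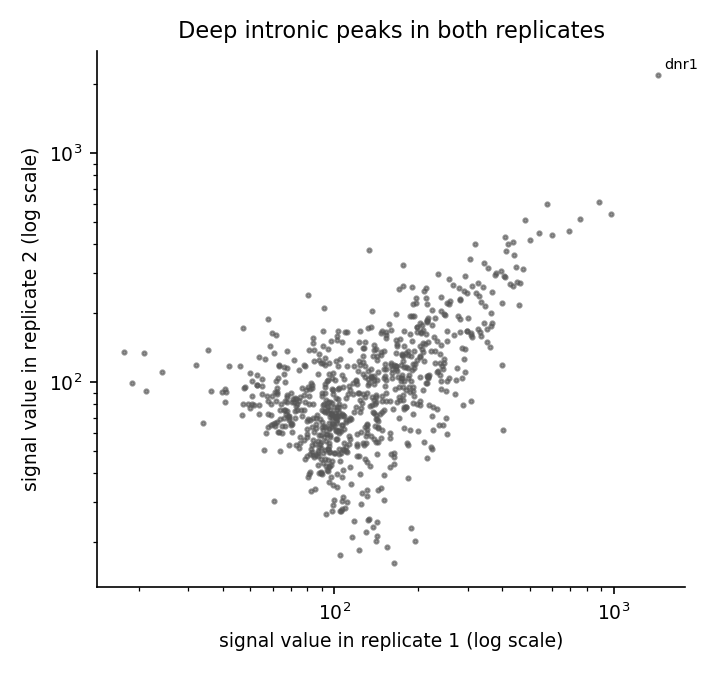
Signal value in replicate 1 (x, log scale) against replicate 2 (y, log scale) for the 762 deep intronic peaks with an entry in both lists; each point is a peak. The peak in dnr1 stands apart at the upper right, with 1447 and 2193, and the scatter is widest among the weaker peaks.

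The strongest deep intronic peak was also the strongest of the whole list. It lay in the first intron of dnr1, a negative regulator of the immune caspase Dredd, at chr2R:22569702-22570542, 7690 bp from the nearest TSS. Its signal value was 3648 in the reproducible list, 1447 in replicate 1 (rank 3) and 2193 in replicate 2 (rank 1). A further member of the same gene, 203 bp away and in the same called interval, had 649.1, with 400.1 in replicate 1 and 62.0 in replicate 2. Both values of the first peak were the highest of any member, whereas the second was unequal between the replicates. At the first, G and C made up 51.5% of the 101 bp window, and CAAAGTCC was present.

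The hosts of the next peaks included chromatin regulators and components of receptor signalling. The peak of osa had 1523, with 977.6 in replicate 1 and 539.8 in replicate 2, and lay in an exon of the noncoding gene lncRNA:CR46035 inside osa. That of pnt had 1501, with 884.4 and 612.1 in replicates 1 and 2, and a further peak of pnt had 850.9, with 409.6 and 428.7. Each of these ranked between 19 and 232 in both replicates. The peak of spen had 1270 (759.3 in replicate 1 and 516.4 in replicate 2), that of InR 1189 (578.0 and 602.5), that of lilli 1144 (690.7 and 457.2) and that of dpp 1049 (603.2 and 437.5). In replicate 1 the values were higher than in replicate 2 for spen, lilli and dpp, and lower for InR. Over the members with an entry in both lists the median ratio of the replicate 1 to the replicate 2 value was 1.41. A higher value in replicate 1 was thus usual and not particular to these peaks. Next were Hr4, a nuclear receptor of the ecdysone cascade, with 991.2 (541.1 in replicate 1 and 449.1 in replicate 2), Pits with 989.8 (482.4 and 508.5) and Raf, the kinase below Ras, with 911.0 (503.1 and 418.7). The other hosts among the 20 strongest peaks had values between 712.8 and 848.5. They were Tet, of the family of 5-methylcytosine dioxygenases, RasGAP1, a negative regulator of Ras, ush, a cofactor of GATA factors, Psc, a Polycomb group protein, sbb, a transcriptional corepressor, Eip75B, an ecdysone-induced nuclear receptor, CG32486 and CG42238. A peak of 815.1 lay where Mi-2, a chromatin remodeller, and Su(Tpl), an elongation factor, overlap. Of these 20 peaks, 13 lay in a first intron and 11 had another member within 2000 bp.

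Relative to the sequence that could hold them, deep intronic peaks were sparser than intronic peaks 1 to 5 kb from a TSS. They were denser than peaks outside genes and more than 1 kb from a TSS, the class called outside genes here. That class starts at 1 kb and the members at 5 kb, so the densities are not matched for distance. Positions that met the rule covered 30.2 Mb, 22.6% of the 133.9 Mb of the arms. They held 26.2 peaks per Mb, with 27.7 among the strongest entries of replicate 1 and 24.4 in replicate 2. Introns 1 to 5 kb from a TSS held 50.4 per Mb (50.9 in replicate 1 and 48.5 in replicate 2), the positions within 1 kb of a TSS 82.5 (78.7 and 87.9) and those outside genes 20.4 (22.4 and 18.5). Exonic positions more than 1 kb from a TSS held 3.85 (2.67 and 4.59). The values of the replicates for deep intron did not overlap with those of any of these classes. As a share of the list, deep intronic peaks made up 17.4% of the strongest entries of replicate 1 and 15.3% of those of replicate 2, a mean of 16.4% ± 1.46 (SD, n = 2).

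The density was highest near the 5 kb limit and lowest far from a TSS, while the height followed no such order. Between 5 and 7.5 kb it was 43.4 per Mb (272 members), with 43.2 in replicate 1 and 39.9 in replicate 2. It was 30.97 per Mb from 7.5 to 10 kb, 32.1 from 10 to 15 kb, 27.4 from 15 to 20 kb, 23.2 from 20 to 30 kb and 12.2 from 30 to 50 kb. The fall was not steady, since the bin from 10 to 15 kb was above that from 7.5 to 10 kb in the reproducible list and in replicate 2. Beyond 50 kb it was 1.58 per Mb (8 members), with 1.78 in replicate 1 and 0.987 in replicate 2. In both replicates the first bin was the highest and the last the lowest. The median signal value of the bins ran from 182.3 to 219.4 in no order of distance. The last bin rests on few genes: 3.62 of its 5.07 Mb lay in Myo81F, Pzl, lovit, CG17684 and DIP-lambda, which had no peak, and 7 of its 8 members lay in hth. The peak farthest from a TSS was in hth, at 83537 bp, and the farthest outside hth was in kek5, at 54709 bp.

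**Figure D2:**
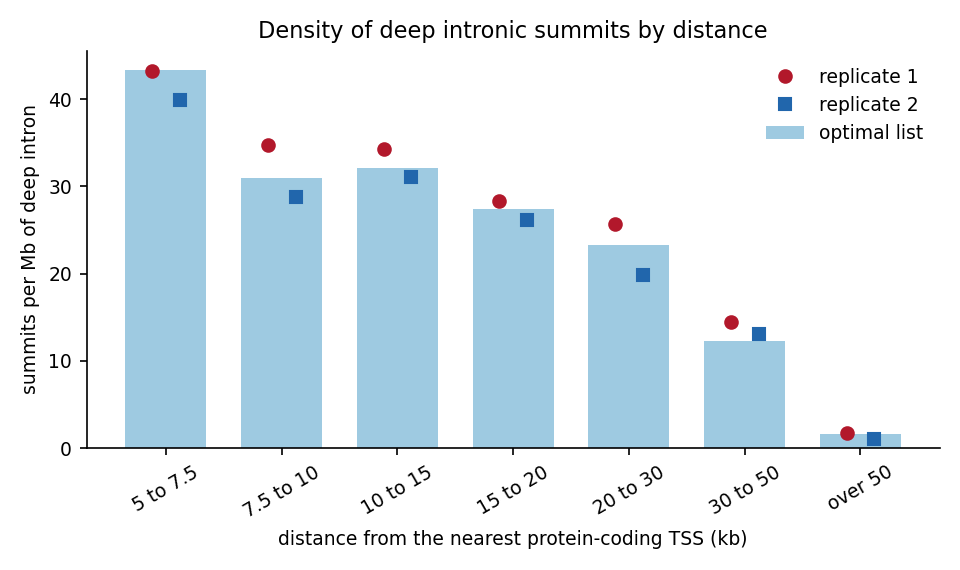
Deep intronic summits per Mb of deep intron (y) by distance from the nearest protein-coding TSS (x, kb). Bars give the reproducible list, circles the strongest entries of replicate 1 and squares those of replicate 2; the bars fall from 43.4 in the first bin to 1.58 in the last.

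First introns held a larger share of the members than of the bases. A first intron of at least 1 transcript held 416 of them (52.6%, Wilson interval 49.1 to 56.1), whereas first introns made up 30.9% of the deep intronic bases, or 35.6% of those at most 50 kb from a TSS. The share was 50.96% among the deep intronic summits of replicate 1 and 52.0% in replicate 2. Members and bases were not matched for distance from a TSS within these 50 kb. The nearest TSS belonged to the gene that holds the peak for 553 members (69.9%) and to another gene for the rest. The median distance was 9759 bp to the nearest TSS and 4654 bp to the nearest exon. The introns had a median length of 17.8 kb. An annotated noncoding gene held 39 members (4.93%), against 2.52% of the deep intronic bases, and 10 of the 39 lay in a noncoding exon. None of the summits lay in an annotated transposable element, which allows a share of up to 0.379% (3 counts of 791; the upper Wilson limit is 0.483%), although such elements made up 8.77% of the deep intronic bases. None of the summits of either replicate did so. How reads that map to several places were treated is not given in the sources used here, and its part in this was not tested.

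Members often had a neighbour. Another member lay within 1000 bp of 168 of them (21.2%, Wilson interval 18.5 to 24.2) and within 5000 bp of 433 (54.7%). For 54 it lay within 250 bp, and such pairs are not always separate in the replicates: 8 members shared their entry in replicate 1 with another member, and 10 in replicate 2. Members of 1 gene are thus not all independent sites. The shares with a neighbour were not set beside those of other classes of peak, so they are not shown to be particular to deep intronic peaks.

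Of 1852 genes with any position that meets the rule, 359 (19.4%) held a member. These hosts had more deep intron, with a median of 18.4 kb against 4.22 kb in the genes without a member. A single member was found in 181 hosts, while 37 held at least 5 and together 248 of the members. The gl gene itself has no position that meets the rule. Tet had the most, with 14 members (14 in replicate 1 and 13 in replicate 2) over 65.8 kb of deep intron. Next were sbb with 13 (12 and 11), Snoo, of the Ski family of transcriptional coregulators, with 11 (12 and 10), SKIP, a partner of Shal potassium channels, with 11 (8 and 7) and hth, a homeodomain cofactor of Hox proteins, with 11 (13 and 8). Then came Eip75B (7 and 9 in replicates 1 and 2), heca (10 and 8), kirre, an adhesion protein of myoblast fusion (12 and 8), and Tis11, which promotes decay of mRNAs with AU-rich elements (8 and 8), with 9 members each. The tenth was tai, a coactivator of the ecdysone receptor, with 8 (7 and 8). The counts of the replicates differed by up to 5 in these genes.

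The arrangement within genes differed. In Tis11 all 9 members lay in a first intron, over 11.4 kb, with signal values from 144.9 to 533.6. This was the densest host, at 0.721 members per kb of deep intron. In sbb the 13 members lay over 21.2 kb, all in the first 27.3 kb of the gene, and in SKIP the 11 lay over 121.1 kb. In kirre, which had 233.7 kb of deep intron, the 9 members lay together, from 267.5 to 319.8 kb from the 5′ end of the gene span. The members of hth fell into separate groups, 1 near the start of the gene, 3 from 46.5 to 50.7 kb and 7 from 89.2 to 121.5 kb from the 5′ end of the span. The strongest of hth had 374.8, with 207.9 in replicate 1 and 168.9 in replicate 2. It ranked 852 in the list, and the other 10 ranked lower.

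**Figure D3:**
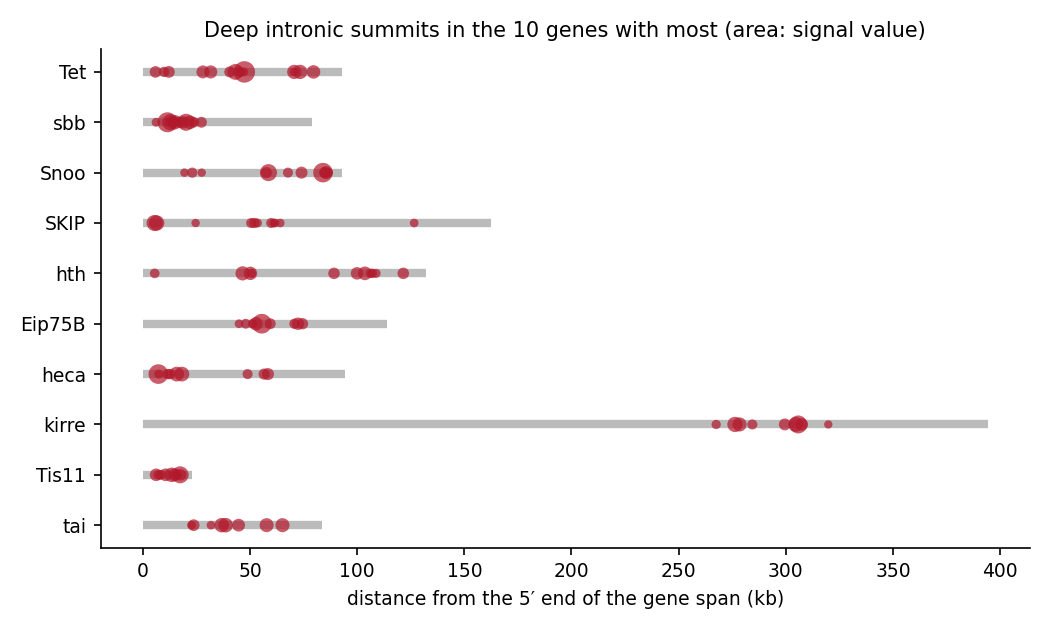
Position of each deep intronic summit along the 10 genes with most members (x, kb from the 5′ end of the gene span; the grey bar is the span); the area of a circle follows the signal value. Tis11 holds 9 members in a span of 23.1 kb, whereas the 9 of kirre sit together within a span of 394.1 kb.

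Signalling genes and ecdysone response genes often held a member, and the lists of neuronal excitability and of phototransduction held none in the reproducible list. The lists were set beside the 19.4% of all genes that could hold a member, and the 26.2 members per Mb of all deep intron. They were chosen with earlier results of these data known, so these shares are descriptions and not independent evidence. The shares of genes are not matched for deep intron, of which hosts had a median of 18.4 kb and genes without a member 4.22 kb. The densities are not matched for distance from a TSS. Among 17 genes of EGFR and Notch signalling with deep intron, 14 held a member (82.4%; 13 in replicate 1 and 11 in replicate 2), at 133 members per Mb. Apart from pnt and Raf, the strongest were in S, the chaperone of EGFR ligands (370.4), Delta, a Notch ligand (299.7) and N, the receptor Notch (266.7). The peak of N was unequal, with 224.6 in replicate 1 and 50.8 in replicate 2. The genes with none were numb, rl and neur. For Wnt, Hedgehog, Dpp and Hippo signalling the count was 14 of 19 (14 in replicate 1 and 15 in replicate 2), at 105 per Mb. After dpp its strongest members were in ex (575.4) and fz (549.2).

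In the ecdysone response, the steroid cascade that drives metamorphosis, 10 of 14 genes held a member (11 in replicate 1 and 9 in replicate 2), at 87.0 per Mb. Hr4 (991.2), Eip75B (712.8) and ftz-f1, a nuclear receptor of the prepupal stage (514.9), were the strongest. EcR, which encodes the ecdysone receptor, held 6 members, the highest of them at 503.9, with 133.5 in replicate 1 and 379.5 in replicate 2. The genes br, Eip93F, Hr38 and crol held none. Of 15 BTB and chromatin regulators 10 held a member (10 in replicate 1 and 8 in replicate 2), at 116 per Mb, with osa, Tet and sbb strongest. Of 8 genes of JNK, insulin and stress signalling 5 did (4 in replicate 1 and 5 in replicate 2), at 113 per Mb, with InR, puc, a phosphatase of JNK (355.9), and msn, a kinase above JNK (165.0), strongest.

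The lists of the eye differed. Of 16 genes of retinal specification with deep intron, hth, svp, dac and ct held a member (4 in each replicate), at 61.7 per Mb. The list held 15 members, against 6.37 at the density of all deep intron, and 25% of its genes held one. The strongest were those of hth (374.8), of svp, a nuclear receptor of photoreceptor fate (213.2), and of dac, a nuclear factor of the retinal determination network (160.0). Of the 15 members in this list, 11 lay in hth. The other 12 genes, among them eya, so, ey, toy, lz and pros, held none in the reproducible list or in either replicate. Some of them had little deep intron in which to hold one, such as so (0.127 kb) and eya (0.864 kb). Others had more, such as pros (26.9 kb), lz (11.8 kb), toy (10.2 kb) and ey (5.56 kb). Phototransduction and the rhabdomere had 0 of 11 genes, over 0.149 Mb, in the reproducible list and in both replicates. These included rdgA, with 68.7 kb of deep intron, eys (31.4 kb), sdt (18.6 kb) and norpA (13.9 kb). At the density of all deep intron, this stretch would hold 3.91 members.

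Neuronal excitability and synapse had 0 of 18 genes over 0.417 Mb, which would hold 10.9 members at that density, and 1 (Syn, synapsin) in replicate 1 and 0 in replicate 2. The genes with most deep intron were nAChRalpha6 (80.1 kb), Sh (55.4 kb) and para (50.02 kb), which encode a nicotinic receptor subunit, a potassium channel and the sodium channel of the axon. Adhesion and axon guidance lay between, with 13 of 28 genes (14 in replicate 1 and 12 in replicate 2) but only 25.6 members per Mb, close to all deep intron. The strongest were in kirre (596.7), Sema1a, a semaphorin (466.6), and Fas3, an adhesion protein (426.1). Muscle had 6 of 12 genes (50.6 per Mb), with twi (325.1), mbc (275.8) and rols (230.2) strongest. The cytoskeleton list had 6 of 16 (41.6 per Mb), with cv-c (471.6), sdk (354.6) and bif (206.1). Body patterning had 5 of 13 (37.4 per Mb), with the Hox gene Antp (479.8), bi (392.0) and inv (275.8). Glia had pnt alone among 3 genes. Tests of the lists against other genes were not made, and the cells in which these genes were active are not known.

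**Figure D4:**
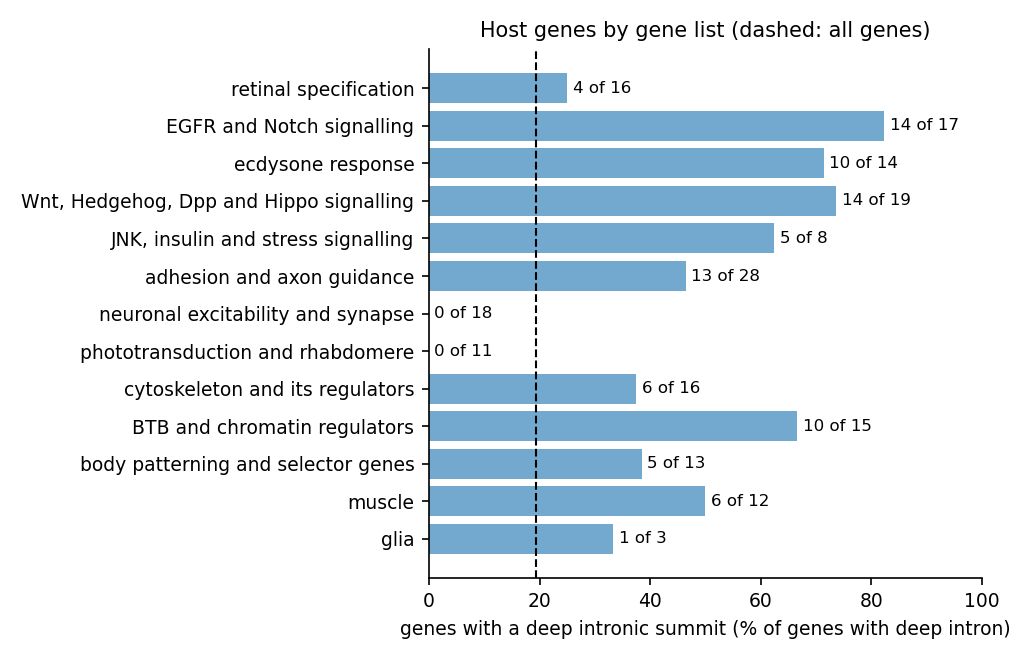
Share of the genes of each list that hold a deep intronic summit (x, percent of the genes with any deep intron); the numbers give the count. The dashed line is the share over all such genes, 19.4%. EGFR and Notch signalling is highest at 82.4%, and the neuronal and phototransduction lists are at 0. The lists were chosen with earlier results of these data known, and the shares are not matched for length of deep intron.

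In the reproducible list, deep intronic summits were poor in G and C, between richer shoulders. In the 101 bp window the median was 34.7% GC at the summits and 41.6% in the control windows, lower at the summit for 499 members and higher for 276. All deep intronic bases had 40.2%. The mean was 36.5% at the summit, 44.8% at 200 bp to the left and 45.4% at 200 bp to the right. The dip was unequal between replicates: the median was 32.7% at the deep intronic summits of replicate 1 and 40.6% at those of replicate 2, a mean of 36.6% ± 5.60 (SD, n = 2). Lower GC at the summit than in the control window was found for 600 of 836 summits in replicate 1 and for 364 of 737 in replicate 2. In replicate 2 GC was higher at the summit for 356. The median of deep intronic summits in replicate 2 was also not below that over windows 500 bp to both sides, which was 40.6% too. At the same 762 members, GC was 34.2% at the summit called in replicate 1 and 36.6% at that called in replicate 2. The replicate summits of a member lay a median of 25.5 bp apart. In the same 4 groups of members, from the strongest to the weakest, the median was 32.7%, 34.7%, 35.6% and 36.6%. In the reproducible list a lower GC at the summit was also seen in 3 other classes, with 36.6% against 40.6% in introns 1 to 5 kb from a TSS, 39.6% against 42.6% within 1 kb of a TSS and 34.7% against 42.6% outside genes. The 78 exonic peaks had a higher GC at the summit, 47.5% against 40.1%. In replicate 2 the summits of those 3 classes were not lower: medians were 41.6%, 44.6% and 41.6% at the summits, against 40.6%, 41.6% and 40.6% over windows 500 bp to both sides. Whether GC content affected the recovery of fragments in either library was not tested.

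**Figure D5:**
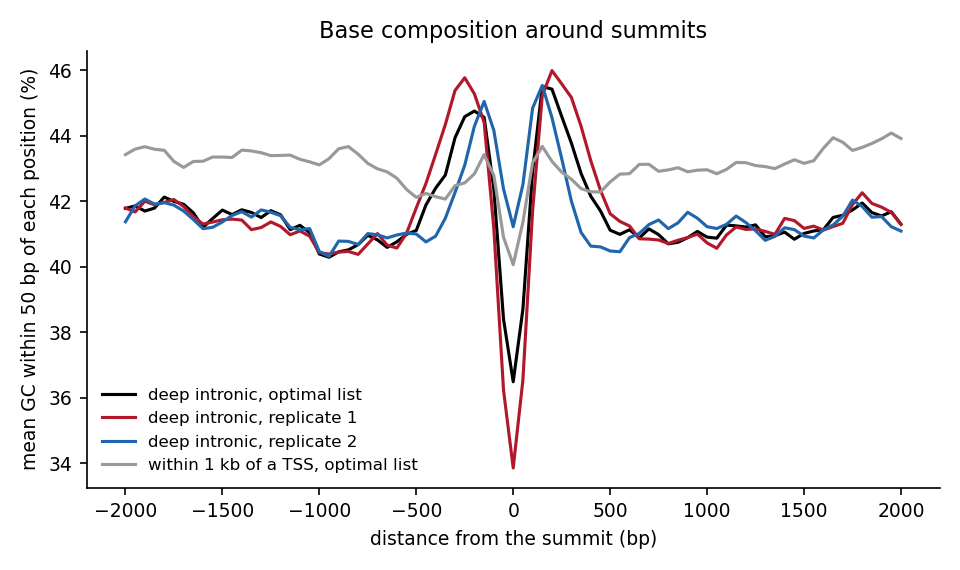
Mean GC content of 101 bp windows (y, percent) by distance from the summit (x, bp). The deep intronic summits of the reproducible list dip to 36.5%, those of replicate 1 to 33.9% and those of replicate 2 to 41.2%, with peaks within 1 kb of a TSS in grey for comparison.

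The 6-mers at the summits followed this composition. All 2080 6-mers, each joined with its complement, were compared between summit and control windows by an exact McNemar test. A 6-mer was called where the shares differed by a fold of 1.5 or more and the adjusted p was under 0.05. So 15 were more frequent at the summits (0.721% of those tested) and 13 less frequent (0.625%). Most of these calls depended on where the control windows lay: at 800 bp, at 1000 bp or on the opposite side, 3, 4 and 4 of the 15 and 5, 4 and 3 of the 13 were still called. Of the 15, 14 held at most 1 G or C, whereas each of the 13 held at least 3. These p-values describe the list of peaks, which are not replicates of an animal. AAAGAA, shown in the sequences of osa, pnt, spen and InR above, had a fold of 1.95 (exact McNemar test, adjusted p = 4.38e-06). AAAAAT was found at 34.4% of summits and at 21.4% of control windows (fold 1.61, exact McNemar test, adjusted p = 4.38e-06). TAGCCA was at 2.02% against 6.07% (fold 0.333, exact McNemar test, adjusted p = 0.0100).

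The replicates shared few of these calls. At the strongest entries of replicate 1, 111 6-mers were more frequent and 178 less frequent, among them all 15 and 11 of the 13. At those of replicate 2, only AAAGAA was called more frequent (fold 1.83, exact McNemar test, adjusted p = 0.00783) and only TAGCCA less frequent (fold 0.262, exact McNemar test, adjusted p = 0.0153). Both of these were also called in replicate 1, AAAGAA with a fold of 1.84 and TAGCCA with 0.419. AAAGAA was more frequent in peaks outside genes too (fold 1.55), with 1.29 in introns 1 to 5 kb from a TSS and 1.46 within 1 kb of a TSS, neither of which reached the limits. The difference in fold between classes of peak was not tested.

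None of the 12 fixed 6-mers of named factors was called at these summits in windows of 50 bp to each side. GAGAGA, bound by the GAGA factor, was found at 6.95% of summits and at 5.56% of control windows (fold 1.25, exact McNemar test, adjusted p = 0.729), and it was called within 1 kb of a TSS (1.86). At the same 791 summits it was called in windows of 100 bp to each side (fold 1.96, exact McNemar test, adjusted p = 7.92e-05). AGATAA of GATA factors had a fold of 1.14, TGACTC of AP-1 1.18, AGGTCA of nuclear receptors 0.955, CAGGTA of Zelda 0.875 and GTGGGA of Su(H) 0.833. TATCGA of DREF had 0.760, TAATTA of homeodomains 0.755, TGTGGT of Runx factors 0.903 and TTTATG of caudal type homeodomains 0.757. CCGGAA of ETS factors was at 6 summits and 20 control windows (fold 0.300, exact McNemar test, adjusted p = 0.130) and was called with the limit at 3 kb (0.300, exact McNemar test, adjusted p = 0.0286). The E-box CACGTG was at 3 and 12 (0.250, exact McNemar test, adjusted p = 0.279). TACTAA was chosen from earlier results of these data, so its p is not an independent test. This 6-mer had a fold of 2.12 (exact McNemar test, adjusted p = 0.0631). Its fold was 2.81 in replicate 1 and 1.21 in replicate 2. A p that misses the limit does not show that the shares were alike, and a match of letters is not a bound site.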

How the data were processed

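ChIP-seq of GFP-tagged Glass was made from whole pupae, with 2 replicates of 1 group. The authors deposited narrow peak lists on dm6 with a signal value and a −log10 q value for each peak. Each replicate list and the pooled list held 30000 entries. The list thresholded by the irreproducible discovery rate held 4809 and is called the reproducible list here. Aligner, caller and depth are not given in the sources used here. Depth is therefore unknown, and no interval covers read counting. Wilson intervals cover counting of peaks only.

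Genes, exons and TSSs came from Ensembl release 115 (BDGP6.54, the dm6 assembly), on arms 2L, 2R, 3L, 3R, 4 and X. Coordinates are 1-based. Replicate values came from the 4809 strongest entries of each replicate list. An entry matched a member when summits lay within 200 bp. A 6-mer counted once per window within 50 bp of a summit. Control windows lay 500 bp away, on sides alternating along the genome, and 23 of them overlapped the summit window of a peak. P-values were two-sided and adjusted over all 6-mers by Benjamini and Hochberg. The test was checked on genomic windows to both sides of the members, with and without planted 6-mers. That check compared flank with flank, so it does not cover the difference in GC between summits and control windows. Analyses used Python 3.11.15, numpy 2.4.6, pandas 2.3.3, scipy 1.17.1 and matplotlib 3.10.9.

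The members, 13 gene lists and 14 motifs were chosen with earlier results of these data known. The symbols of 3 listed genes were changed to those of the annotation. Genes were named by rule: gl, hosts of the 20 strongest members, the 10 hosts with most members, up to 3 hosts of each list, the members farthest from a TSS and those nearest to 5 kb. Other genes were named after their values were seen. They were genes with none or with most deep intron in a list, the hosts with most members per kb and the hosts of CAAAGTCC. Alternatives are in the closing section.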

Additional observations from a re-analysis of the deposited data

How the results depend on the processing

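With the limit at 3 kb or 10 kb from a TSS, the share of the list was 22.7% or 7.92% and the density 29.2 or 19.6 per Mb. At 10 kb there were 381 members in 181 genes, fewer by construction. Counting TSSs and exons of genes of every type left 14.2%. Among the 2404 strongest peaks there were 394 members in 234 genes, at 13.0 per Mb, with a median signal value of 302 and 99.5% in both replicates. Among the strongest entries of either replicate alone, the median signal value was 92.5 to 117, the share with an entry in the other replicate 89.8% to 93.9%, and the median GC 32.7% to 40.6%. Entries of both replicates were found for 90.0% of members within 100 bp and 99.6% within 500 bp. The count of called 6-mers, 28, was unstable, and the cause was not tested: it was 45 at 3 kb, 1 at 10 kb, 7 with genes of every type, 8 among the 2404 strongest, 78 with windows of 100 bp to each side, and 2 to 289 with either replicate alone. With windows of 100 bp to each side, 2 of the 15 more frequent and 7 of the 13 less frequent 6-mers were still called. GAGAGA was called with windows of 100 bp to each side (fold 1.96) and CCGGAA at 3 kb (0.300). TACTAA passed the limits under 3 alternatives, one of them replicate 1 alone (1.71 to 2.81). Because TACTAA was chosen from earlier results of these data, this is not independent support. Host counts of lists moved in 16 of 65 alternatives, mostly at 10 kb and among the 2404 strongest. Folds of 7 uncalled 6-mers crossed 1: AGATAA (1.14) was 0.828 at 10 kb, 0.755 in replicate 2 alone and 0.934 with opposite windows; AGGTCA (0.955) was 1.44 among the 2404 strongest, 0.792 and 1.33 in replicates 1 and 2 alone, and 1.31 and 1.17 with control windows at 800 and 1000 bp. CAGGTA (0.875) was 1.25 at 10 kb, 1.08 at 800 bp and 1.40 at 1000 bp. GAGAGA was 0.964 among the 2404 strongest and 0.918 and 1.43 in replicates 1 and 2 alone. At 3 kb GTGGGA was 1.25 and TATCGA 1.19. TGACTC (1.18) was 0.789 at 3 kb, 0.429 and 0.593 in replicates 1 and 2 alone, 0.933 with windows of 100 bp, 0.909 at 800 bp and 0.571 with opposite windows. The cause was not tested. No paired analysis was possible because the design has 1 group.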

Other observations

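Many long genes held no deep intronic peak. The share of long genes with one was above the 19.4% of all genes with deep intron, but these shares are not matched for length. The median over all genes with deep intron was 6.09 kb of it. Whether long genes held a peak more or less often than their length alone gives was not tested. Of 132 genes with at least 50 kb of deep intron, 62 (47.0%) held a member and 70 did not, and 66 of these held none among the strongest entries of either replicate. Myo81F had 1955 kb of deep intron, Pzl 699.1 kb, lovit 427.3 kb, CG17684 387.9 kb and DIP-lambda 371.8 kb, and no peak of any class lay in them. Annotated transposable elements made up 8.94% of their deep intron. This value counts no other repeats, so it does not describe how repetitive these genes are. The share of their sequence to which reads map uniquely was not examined, and its part in the absence of peaks was not tested. Other long genes without a peak of any class were bru3, an RNA-binding protein (250.4 kb), Snap25, of the synaptic vesicle fusion machinery (217.9 kb), Rbp6 (150.8 kb) and dpr6, a neuronal cell surface protein (133.1 kb). These genes were chosen after their values were seen.

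Some hosts with little deep intron were dense. After Tis11, the hosts with at least 3 members and most members per kb of deep intron were Pits (3 members, 0.651 per kb), corn (3, 0.648), ex (4, 0.603) and trx, of the Trithorax group (3, 0.602). Next in this order were comm3 (3, 0.504), Myc, a growth regulator (3, 0.482), and Mnt, its antagonist (5, 0.459). Among the 5 large arms the density ran from 23.9 per Mb on 3R to 32.3 on 2L, with 28.7 on X, and chromosome 4 held 1 member (3.47 per Mb, with 0 in replicate 1). The arm 2L was the densest in both replicates, with 35.3 per Mb in replicate 1 and 29.7 in replicate 2. The 8.91 Mb of deep intron on 3R included Myo81F (1955 kb) and Pzl (699.1 kb), which had no peak and lower its density. Likewise lovit lay on 3L, and CG17684 and DIP-lambda on 2R. The order of the arms without these genes was not examined.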
